A study of Mus musculus with 9 samples.

Results

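The BCL2 family decides at the outer mitochondrial membrane whether a cell lives or dies. Its survival proteins hold the effectors BAX and BAK1 in check. BH3-only proteins, which sense stress, lost growth factor signals or DNA damage, bind the survival proteins or the effectors, and free effectors then open the membrane, release cytochrome c and start the caspases. In acute myeloid leukemia (AML) the balance between survival proteins is a known point of dependence, and drugs that mimic BH3-only proteins act on it. RNA-Seq measures the transcripts only, and much of the regulation of this family, above all of MCL1, acts on the protein.

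The 10 genes described here were chosen by name among the 55401 genes of the deposited tables. They comprise the survival genes Bcl2, Bcl2l1 (encoding BCL-XL), Mcl1 and Bcl2a1b (an A1 gene), the effectors Bax and Bak1, and the BH3-only genes Bcl2l11 (BIM), Bid, Bbc3 (PUMA) and Pmaip1 (NOXA). All 10 were found once each, and 9 of them passed the filter for testing, an average of 10 or more normalized counts in the 6 libraries of a comparison. Bcl2a1b did not pass it.

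The study tracked color-coded clones of H9M cells, a murine AML model, in mice, and sequenced clones before and after they had expanded. H9M cells are lineage-negative bone marrow cells of C57BL/6-Ly5.1 mice that carry a gammaretroviral Meis1-2A-Hoxa9 vector with puromycin resistance. All 9 libraries come from such cells after gene editing with Cas9 ribonucleoprotein and transduction with the lentiviral FGB-D vector that encodes the color code. Clones were grown in lethally irradiated C57Bl6/J recipients that also received helper bone marrow, and were sorted from the spleen as CD45.1+ cells with bright EGFRt, the surface anchor of the color code, within a cKit+CD11b dim/neg gate. The 3 pre-malignant libraries were sorted from mouse #15, sacrificed early, and hold clone 33BC-D, clone 38BC-D and clone 43BC-D. The 3 de novo expanded libraries hold the same clones after expansion, from endpoint mice #17, #13 and #14 in that order. The 3 stably expanded libraries hold the single clone 34BC-D from mice #13, #14 and #17. This clone has no pre-malignant library here, and "stably expanded clones" below stands for these libraries of a single clone. Pre-malignant state and mouse #15 cannot be told apart, nor can stable expansion and clone 34BC-D. For a column of the tables the labels give the group but neither mouse nor clone, so libraries carry numbers from 1 to 3 by group that stand for no mouse or clone.

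Reads on genes ranged from 10379739 to 15551196 per library, and the 10 genes together took between 6827 and 12455 of them. The sort markers were present in every library, with normalized counts of Kit from 1937 to 3979, of Itgam (CD11b) from 379 to 1188 and of Ptprc (CD45) from 4238 to 5216. One library stood apart, namely de novo expanded library 3, in which Mpo, the gene of the granule enzyme myeloperoxidase, had a normalized count of 218137 against 22355 and 36037 in the other libraries of the group. Leaving it out raised the number of genes that passed the test between de novo expanded and pre-malignant clones from 0 of 14195 to 214 of 14224. Counts of calls of the members that involve it are given with and without it. Fold changes without it are given singly for some members, and for the others only as a range. Libraries of 1 group come from separate mice or separate clones, and p-values measure the spread between these samples. In bulk libraries, fewer cells of a type and less RNA per cell cannot be told apart.

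Levels are given as normalized counts, that is reads divided by a size factor over all 9 libraries. Tests were run within the table of each comparison with limma, two-sided, on log2(normalized count + 1), and p-values were adjusted by Benjamini-Hochberg over all genes tested. Calls required an adjusted p-value under 0.05 together with a difference of 2-fold or more. Differences are given as log2 fold changes on that scale.

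Bcl2, the founding survival gene, lies on chromosome 1 from 106538178 to 106714274 on the minus strand (GRCm38.p6). Its normalized counts were 1081, 1125 and 1460 in pre-malignant, 2207, 1814 and 212 in de novo expanded and 436, 907 and 513 in stably expanded libraries. The highest stably expanded library stayed below the lowest pre-malignant library. The de novo expanded group spanned all other libraries, with libraries 1 and 2 above and library 3 below everything else.

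Between stably expanded and pre-malignant clones, Bcl2 was the 1 member called. Its mean was 619 ± 253 normalized counts in the stably expanded libraries, against 1222 ± 207 in the pre-malignant libraries (SD, n = 3 libraries). The log2 fold change was -1.04 (95% interval -1.56 to -0.53, limma adjusted p-value 0.0247). Of all 13968 genes tested in this comparison, 2.75% were called, and 7.95% passed the adjusted p-value alone. The value sits close to both limits. The count-based tests edgeR and DESeq2 gave -0.98 and -0.99, past the adjusted p-value (0.0357 and 0.000399) but under 2-fold. Leaving out any 1 library except stably expanded library 2 moved the adjusted p-value to between 0.054 and 0.0794, whereas without stably expanded library 2 the log2 fold change was -1.36 with an adjusted p-value of 0.00219. In a single fit of all 9 libraries, which carries the spread of the de novo expanded group into the error, the adjusted p-value was 0.456.

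De novo expanded against pre-malignant clones gave no call for Bcl2. The means were 1411 ± 1057 and 1222 ± 207, and the log2 fold change was -0.33 with a 95% interval from -2.20 to 1.53. Without de novo expanded library 3 the sign turned, with a log2 fold change of 0.74 (95% interval 0.42 to 1.07) and an adjusted p-value of 0.0225, under 2-fold. Libraries 1 and 2 lay above all libraries of the other groups for Bcl2. Leaving out library 3 therefore fixed the sign, here and against the stably expanded clones. The p-values of these fits do not allow for that choice. With all libraries kept, edgeR and DESeq2 also gave the opposite sign, with a log2 fold change of 0.22 in each and no call. In the fit without library 3, 1.5% of all genes were called and 4.35% passed the adjusted p-value with no fold limit. Likewise, stably against de novo expanded clones gave a log2 fold change of -0.69 (95% interval -2.64 to 1.27, adjusted p-value 0.930). Without de novo expanded library 3 it was -1.76 (95% interval -2.37 to -1.16, adjusted p-value 0.00686) and Bcl2 was the 1 member called, where 3.69% of all genes were called and 6.69% passed the adjusted p-value. It was -0.08 without de novo expanded library 1, -0.22 without library 2 and -1.19 with either edgeR or DESeq2, none of them called.

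**Figure D1:**
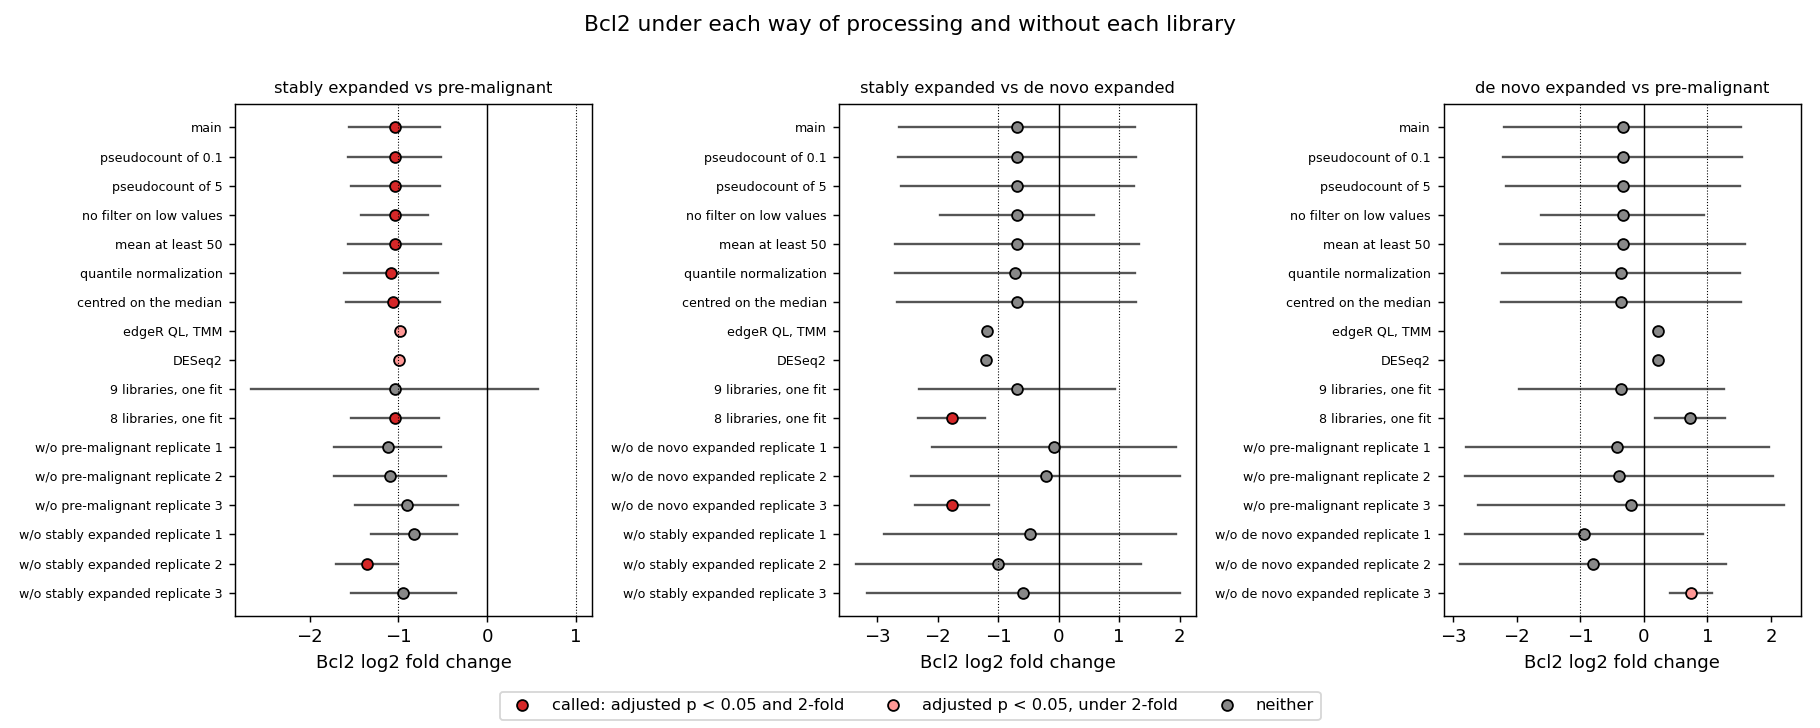
Log2 fold change of Bcl2 (x axis) in the 3 comparisons under each way of processing and without each library (y axis), with 95% intervals where the tool gives one; dotted lines mark 2-fold. Against the pre-malignant clones, all 17 stably expanded values lie below 0, between -1.36 and -0.82, while the de novo expanded values lie on both sides of 0 and are positive without library 3 and with edgeR and DESeq2.

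Bcl2l1, whose product BCL-XL guards mainly late erythroid cells and platelets, had normalized counts of 275, 286 and 267 in pre-malignant, 227, 311 and 341 in de novo expanded and 391, 325 and 388 in stably expanded libraries. The stably expanded libraries did not overlap with the pre-malignant ones. The direction was opposite to that of Bcl2, with means of 368 ± 37.3 and 276 ± 9.41 and a log2 fold change of 0.41 (95% interval 0.09 to 0.73), yet the adjusted p-value of 0.104 missed the limit. Against the de novo expanded clones the log2 fold change was 0.34 (95% interval -0.11 to 0.80), and 0.46 (95% interval 0.03 to 0.90, adjusted p-value 0.213) without de novo expanded library 3.

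Mcl1, a short-lived survival protein that myeloid progenitors and many AML cells need, was the most abundant member. Its normalized counts were 3316, 3213 and 3377 in pre-malignant, 2923, 3548 and 2725 in de novo expanded and 2672, 2971 and 3611 in stably expanded libraries. The 3 groups overlapped. The log2 fold changes against the pre-malignant clones were -0.10 (95% interval -0.36 to 0.17) in de novo expanded and -0.11 (95% interval -0.35 to 0.14) in stably expanded clones, so that a change of 2-fold in either direction lies outside both intervals. Between the leukemic groups it was 0.01 (95% interval -0.34 to 0.36).

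The A1 gene Bcl2a1b was at or near 0. It had 2 reads in pre-malignant library 2, 1 read in de novo expanded library 3 and 0 reads in the other 7 libraries. A count of 0 allows up to 3 reads, which is between 2.62 and 4.03 normalized counts in these libraries, and every value lay under this limit, so no fold change is given. Mice carry several near-identical A1 genes, and a read that fits more than 1 of them may be lost from the count of each. The copies are shown because that ambiguity bears on the zeros. The first 90 coding bases of 3 of them, from GENCODE release M1 transcripts, differ at the 6 positions in capitals.
Bcl2a1b: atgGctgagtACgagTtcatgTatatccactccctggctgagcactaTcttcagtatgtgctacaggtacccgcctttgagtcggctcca
Bcl2a1a: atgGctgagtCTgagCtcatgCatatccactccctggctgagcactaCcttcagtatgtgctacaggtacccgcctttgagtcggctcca
Bcl2a1d: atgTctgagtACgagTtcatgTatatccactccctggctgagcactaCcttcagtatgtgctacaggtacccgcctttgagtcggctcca
Over the 519 coding bases, Bcl2a1b was 97.9% identical to Bcl2a1a and 98.8% identical to Bcl2a1d, and 61.4% of its stretches of 38 bases, the read length given in the labels, occurred in at least 1 other copy. The labels name a flow cell for single reads but also a second sequence read, and where both ends of a fragment were read, the share of fragments that fit several copies may be smaller. The remaining stretches are particular to Bcl2a1b among the 4 copies compared. The other copies had few reads as well. Bcl2a1a reached at most 7 reads (stably expanded library 2) and Bcl2a1d at most 5 (de novo expanded library 1), both above the limit of 3 reads, and Bcl2a1c at most 2. Bcl2a1b also shares up to 401 exonic bases with the annotated gene Gm29094 on the same strand, which had 0 reads in every library. Reads of that stretch may be missing from both genes, so the zeros of Bcl2a1b may understate its level.

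For Bcl2 and Bcl2l1, the survival genes with differences of opposite sign in stably expanded clones, the 250 bases before the RefSeq start nearest to the gene's start in the tables are shown, 5′ to 3′ on the gene's strand (RefSeq, GRCm38.p6). The Bcl2 window is chr1:106714291-106714540 and the Bcl2l1 window is chr2:152831729-152831978, both on the minus strand. Capitals mark matches to the motifs searched on both strands, which were GGGCGG (GC box), CACGTG (E-box), TGACAG (MEIS core), TGANTCA (AP-1) and GTAAACA (FOXO).
Bcl2: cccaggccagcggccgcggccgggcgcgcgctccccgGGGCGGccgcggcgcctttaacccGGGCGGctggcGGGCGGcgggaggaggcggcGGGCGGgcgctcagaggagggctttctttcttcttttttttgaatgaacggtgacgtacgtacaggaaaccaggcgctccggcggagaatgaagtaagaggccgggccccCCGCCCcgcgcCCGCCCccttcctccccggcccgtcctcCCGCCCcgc
Bcl2l1: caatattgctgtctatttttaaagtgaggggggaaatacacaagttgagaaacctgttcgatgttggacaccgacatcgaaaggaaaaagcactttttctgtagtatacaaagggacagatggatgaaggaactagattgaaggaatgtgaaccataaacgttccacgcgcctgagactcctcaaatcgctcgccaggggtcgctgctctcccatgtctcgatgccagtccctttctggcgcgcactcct
The Bcl2 window was 74.8% G and C and held 7 GC boxes and no other motif of the 5. The Bcl2l1 window was 47.6% G and C and held none of them. A further RefSeq window of Bcl2l1, chr2:152828490-152828739, held 2 MEIS cores. Over all 32851 windows of this length, the median was 52.4% G and C, and 32.7% held a GC box, 6.02% the E-box, 15.9% the MEIS core, 6.75% the AP-1 motif and 3.17% the FOXO motif. RefSeq windows were found for 9 of the 10 members, all except Pmaip1, and numbered 14 because some genes have several starts. The window nearest to the gene's start held a GC box in 7 of the 9, the E-box in Bax, the AP-1 motif in Bcl2a1b and the FOXO motif in Bcl2l11. Other windows of Bbc3 held the E-box, the MEIS core and the FOXO motif.

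Of the effectors, which form the pore themselves, Bak1 passed the adjusted p-value in stably expanded clones. It lies on chromosome 17 from 27019810 to 27029009. Its normalized counts were 1116, 1295 and 1248 in pre-malignant, 1560, 1352 and 1485 in de novo expanded and 1620, 1600 and 1527 in stably expanded libraries. Every expanded library of either kind was above every pre-malignant library.

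Bak1 was at 1582 ± 48.9 normalized counts in the stably expanded and 1219 ± 92.9 in the pre-malignant libraries. Its log2 fold change of 0.38 (95% interval 0.16 to 0.59, limma adjusted p-value 0.0397) was under the 2-fold limit. Leaving out 1 library at a time kept it past the adjusted p-value only without stably expanded library 3, 1 of 6 fits, with log2 fold changes from 0.32 to 0.42 and adjusted p-values up to 0.134. It also missed the limit with quantile normalization (0.0524), when low values were kept (0.081) and in the single fit of 9 libraries (0.103). In de novo expanded clones the log2 fold change was 0.29 (95% interval 0.03 to 0.54) with an adjusted p-value of 0.417. Few reads fell on the annotated gene Ggnbp1, which overlaps Bak1 on the opposite strand (22 to 40 reads per library).

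Bax normalized counts were 334, 400 and 423 in pre-malignant, 558, 411 and 385 in de novo expanded and 430, 427 and 569 in stably expanded libraries. The lowest stably expanded library was just above the highest pre-malignant one. The log2 fold change was 0.30 (95% interval -0.05 to 0.64, adjusted p-value 0.272) in stably expanded and 0.23 (95% interval -0.19 to 0.66) in de novo expanded clones.

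Among the BH3-only genes, Bbc3 had its lowest mean in the stably expanded clones, like Bcl2. Its product PUMA, a target of p53 and FOXO3, binds all survival proteins. Normalized counts of Bbc3 were 143, 158 and 127 in pre-malignant, 215, 119 and 34.3 in de novo expanded and 52.5, 110 and 51.0 in stably expanded libraries. As for Bcl2, the stably expanded libraries lay below all pre-malignant ones, and de novo expanded library 3 was the lowest of the 9.

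Stably expanded clones had 71.2 ± 33.7 normalized counts of Bbc3 against 143 ± 15.8 in the pre-malignant clones. The log2 fold change of -1.08 (95% interval -1.77 to -0.39) reached an adjusted p-value of 0.0597 in limma and was not called. It was called by DESeq2 (log2 fold change -1.003, adjusted p-value 0.0272), when low values were kept (adjusted p-value 0.027) and without stably expanded library 2 (log2 fold change -1.44, adjusted p-value 0.0136). The other alternatives gave adjusted p-values up to 0.331. In de novo expanded clones the log2 fold change was -0.54 (95% interval -1.93 to 0.85), and 0.19 without library 3. Against the de novo expanded clones, stably expanded clones gave -0.52 (95% interval -2.06 to 1.02), and -1.25 (adjusted p-value 0.112) without library 3. Bbc3 rested on 38 to 189 reads per library, the fewest of the 9 tested members.

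Pmaip1, whose product NOXA binds and helps to degrade MCL1, had normalized counts of 1393, 1259 and 1362 in pre-malignant, 1211, 1709 and 907 in de novo expanded and 623, 1156 and 1211 in stably expanded libraries. All stably expanded libraries were below all pre-malignant ones, the first by far the most. The log2 fold change of -0.48 (95% interval -0.95 to -0.02) had an adjusted p-value of 0.181, and it was -0.17 without stably expanded library 1.

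Bcl2l11 encodes BIM, which mediates death after growth factor loss. Its normalized counts were 300.5, 269.8 and 365 in pre-malignant, 294, 360.0 and 259.8 in de novo expanded and 232, 272 and 317 in stably expanded libraries. The groups overlapped, with log2 fold changes of -0.19 (95% interval -0.58 to 0.20) in stably and -0.02 (95% interval -0.45 to 0.42) in de novo expanded clones against the pre-malignant clones.

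Bid, cleaved by caspase-8 to link death receptors to mitochondria, had its highest mean in de novo expanded clones. Normalized counts were 1005, 1012 and 1187 in pre-malignant, 1213, 1233 and 1292 in de novo expanded and 1018, 1242 and 980.4 in stably expanded libraries. De novo expanded and pre-malignant libraries did not overlap, and the log2 fold change was 0.25 (95% interval -0.01 to 0.50, adjusted p-value 0.450). In stably expanded clones it was 0.01 (95% interval -0.26 to 0.28). Bid shares up to 628 exonic bases with Bcl2l13 on the opposite strand, which had 653 to 1160 reads per library. The library kit marks strand, but the strand setting of the counting is not given in the sources used here, so reads of this stretch may be missing from or added to both genes.

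**Figure D2:**
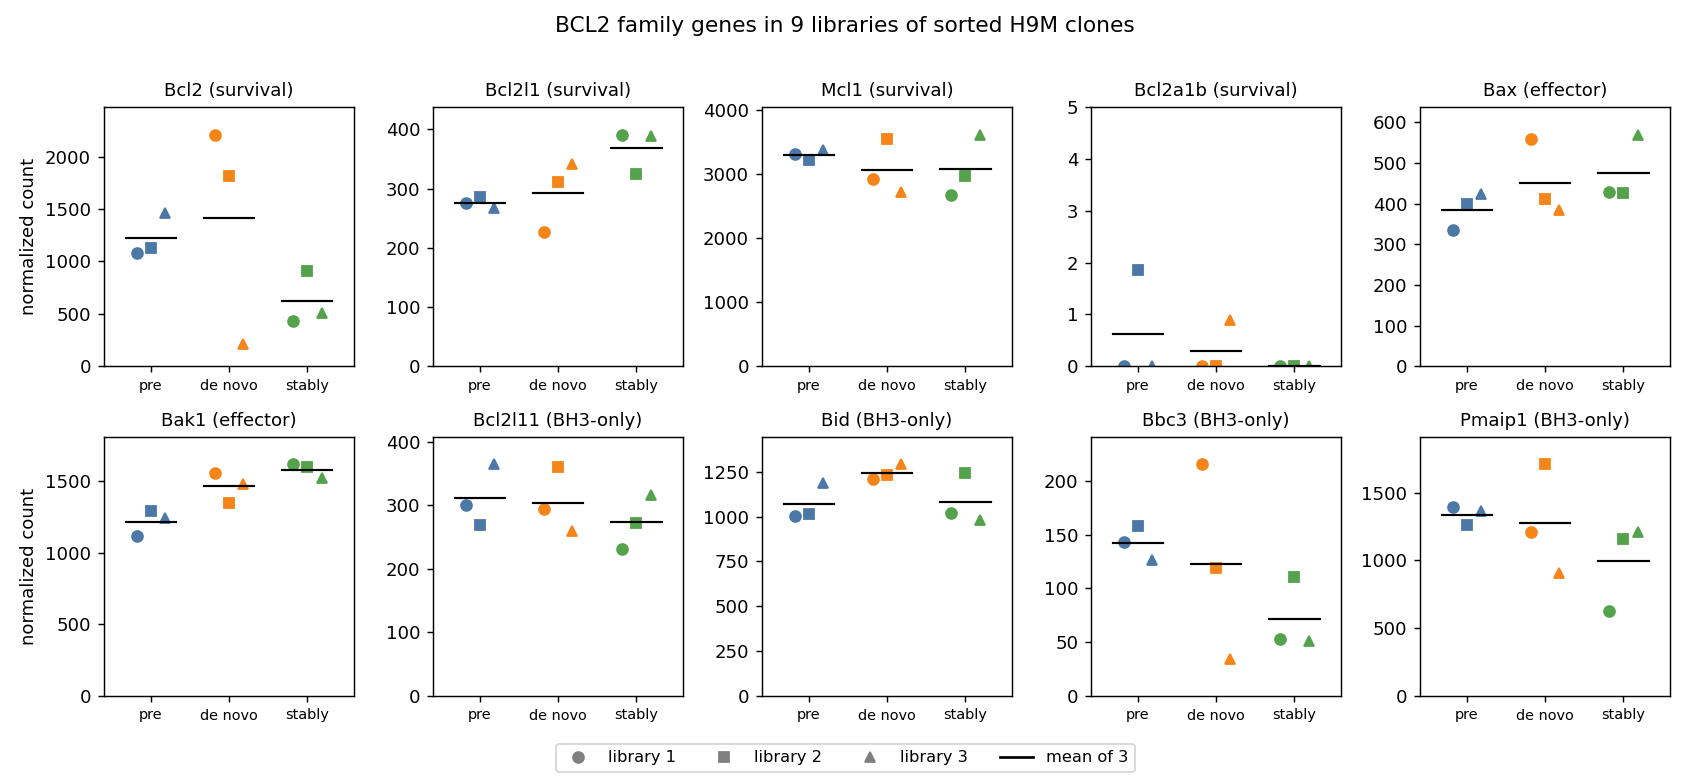
Normalized counts (y axes, each starting at 0) of the 10 genes in the 9 libraries by group (x axis), with the number of the library as the symbol and the mean of 3 as a line. Bcl2 and Bbc3 are lower in all stably expanded than in all pre-malignant libraries and lowest of all in de novo expanded library 3, Mcl1 overlaps between the groups, and Bcl2a1b stays under 2.

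Counted over the family, 1 of the 9 tested members was called between stably expanded and pre-malignant clones, and 2 (Bcl2 lower, Bak1 higher) passed the adjusted p-value. An unadjusted p-value under 0.05 was met by 5 of 9, namely Bcl2, Bcl2l1, Bak1, Bbc3 and Pmaip1, against 25.4% of all genes tested. Groups were free of overlap for these 5 and Bax, 6 of 9, against 30.7% of all genes. Values were higher for 4 and lower for 5 members, and the median log2 fold change of -0.11 compares with 0.00 over all genes tested.

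In contrast, between de novo expanded and pre-malignant clones 0 of 9 members were called and 0 passed the adjusted p-value in limma, where 0% of all genes did either. DESeq2 and edgeR called 0 members as well. Without de novo expanded library 3, 0 members were called and 1 (Bcl2) passed the adjusted p-value, while the other 8 had log2 fold changes from -0.04 to 0.34 and adjusted p-values of 0.207 or more. With all 6 libraries kept, only Bak1 had an unadjusted p-value under 0.05 in limma (11.3% of all genes). Bak1 and Bid did not overlap between the groups (19.1% of all genes). The median log2 fold change of the members was -0.02, compared with 0.01 over all genes.

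Between stably and de novo expanded clones, 0 of 9 members were called, 0 passed the adjusted p-value and 0 had an unadjusted p-value under 0.05 in limma, and edgeR and DESeq2 called 0. Without de novo expanded library 3, Bcl2 was called, and the other 8 members had log2 fold changes from -1.25 to 0.46 and adjusted p-values of 0.112 or more. Over all genes in the fit of 6 libraries, 0.00727% were called, 0.00727% passed the adjusted p-value and 4.83% had an unadjusted p-value under 0.05. No member was free of overlap between the groups, compared with 9.61% of all genes. These comparisons share libraries and are not independent of each other.

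**Figure D3:**
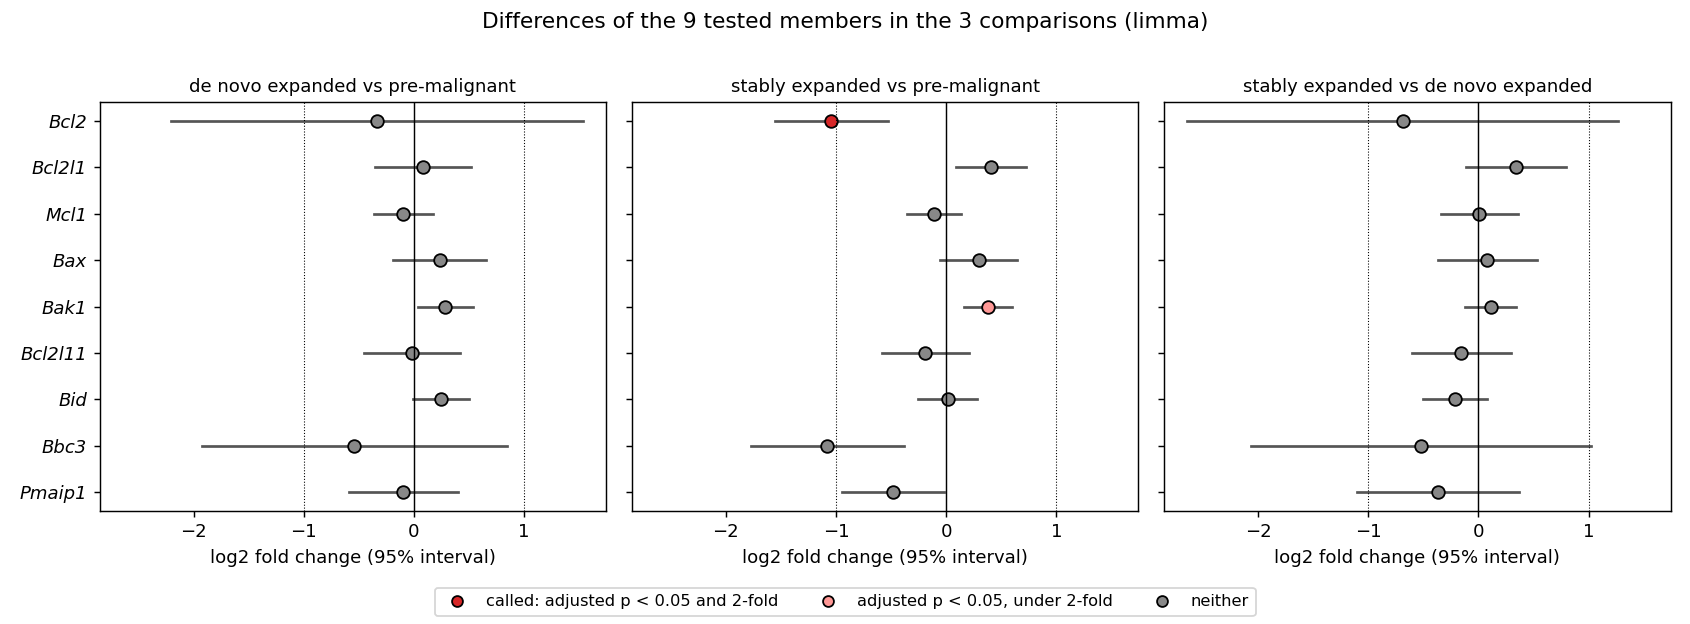
Log2 fold change (x axis) with its 95% interval for the 9 tested members (y axis) in the 3 comparisons, with dotted lines at 2-fold. Intervals of Bcl2 and Bbc3 that involve the de novo expanded group are the widest, and only Bcl2 in stably expanded against pre-malignant clones passes both limits.

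Members differed strongly in how much they varied within a group. In the pre-malignant libraries, the highest over the lowest normalized count was 1.05 for Mcl1, 1.07 for Bcl2l1, 1.11 for Pmaip1 and at most 1.35 for the other tested members. In the de novo expanded libraries it was 10.4 for Bcl2 and 6.28 for Bbc3, but 1.07 for Bid and 1.15 for Bak1. The SD of log2 values of Bcl2 in this group was 1.87, and 2.6% of all genes tested had a larger one, while for Bid it was 0.05, and 95.3% had a larger one. In the stably expanded libraries, which hold 1 clone in 3 mice, the ratio was 2.16 for Bbc3, 2.08 for Bcl2, 1.94 for Pmaip1 and 1.06 for Bak1.

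Per kilobase of exonic length, which allows genes to be compared, Mcl1 was the highest member in every group, at 966 ± 24.3 normalized counts per kb in the pre-malignant clones (SD, n = 3). Bak1 (507 ± 38.6) and Pmaip1 (490 ± 25.7) followed with overlapping ranges. Bid (301 ± 28.9), Bax (245 ± 29.3) and Bcl2 (133 ± 22.6) then descended without overlap between neighbours. Bbc3 (67.1 ± 7.46) and Bcl2l1 (60.2 ± 2.05) overlapped, and Bcl2l11 (38.8 ± 6.03) was the lowest of the tested members. In the stably expanded clones Bcl2l1 (80.2 ± 8.12) stood above Bcl2 (67.6 ± 27.6) and Bcl2l11 (34.1 ± 5.32) above Bbc3 (33.5 ± 15.9), with overlapping ranges in both pairs.

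Ratios of members within a library do not depend on library size, and were taken per kb as values without a test. The ratio of Bcl2l1 to Bcl2 was 0.508, 0.507 and 0.365 in pre-malignant, 0.205, 0.343 and 3.21 in de novo expanded and 1.79, 0.715 and 1.51 in stably expanded libraries. Bcl2l1 thus exceeded Bcl2 in 3 of 9 libraries, of which 2 were stably expanded, and all stably expanded libraries lay above the pre-malignant range.

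The ratio of Mcl1 to Bcl2 ran from 6.20 to 8.22 in the pre-malignant and from 8.77 to 18.9 in the stably expanded libraries, and was 3.55, 5.24 and 34.4 in the de novo expanded libraries. The ratio of Bcl2 to its effector partner Bax was 0.557, 0.484 and 0.594 in pre-malignant, 0.680, 0.759 and 0.0947 in de novo expanded and 0.175, 0.366 and 0.155 in stably expanded libraries. Again the stably expanded libraries did not reach the pre-malignant range, and the de novo expanded libraries lay on both sides of it.

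For Bcl2 to Bcl2l11, the range was 3.15 to 3.66 in the pre-malignant libraries, 0.715 to 6.58 in the de novo expanded libraries and 1.42 to 2.93 in the stably expanded libraries. Mcl1 to Pmaip1 varied least, from 1.90 to 2.04 in the pre-malignant, from 1.66 to 2.40 in the de novo expanded and from 2.05 to 3.43 in the stably expanded libraries.

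**Figure D4:**
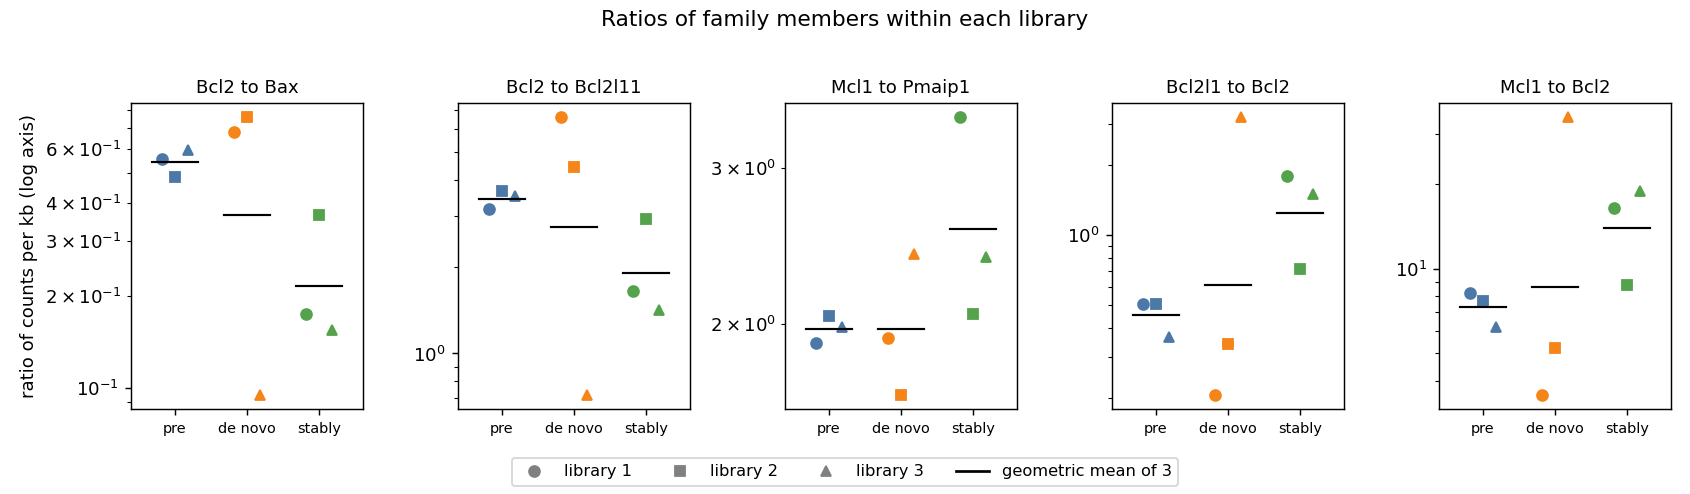
Ratio of normalized counts per kb (log y axis) for 5 pairs of members in each library by group (x axis), with the number of the library as the symbol and the geometric mean as a line. Ratios that contain Bcl2 spread up to 15.7-fold within the de novo expanded group, with library 3 apart from the other two. The stably expanded libraries lie outside the pre-malignant range in each of the 5 pairs. All pairs but Mcl1 to Pmaip1 share Bcl2 and are not independent, and that pair clears the range narrowly (2.05 against 2.04).

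De novo expanded library 3, the lowest for Bcl2 and Bbc3, also stood apart in genes outside the family. Mpo was between 85054 and 95651 in the pre-malignant and between 101104 and 123617 in the stably expanded libraries, and in the de novo expanded group the library with the lowest Bcl2 had by far the highest Mpo. Csf1r, the gene of the receptor for macrophage colony-stimulating factor, was lower in all stably expanded (404 to 763) than in all pre-malignant libraries (1351 to 2187) and lowest in de novo expanded library 3 (172). In de novo expanded libraries 1 and 2 Csf1r was 733 and 1136, below the pre-malignant range, whereas Bcl2 was above it there.

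Of 12 B cell markers, 11 were tested between stably expanded and pre-malignant clones, and 6 were called lower and 0 higher, where 2.75% of all genes were called. Their summed normalized counts were 3136 to 3944 in the pre-malignant, 1079 to 3150 in the de novo expanded and 1219 to 1544 in the stably expanded libraries. Most of each sum was Ighm, at 2647 to 3286, 855 to 2619 and 943 to 1158 in the same order. Cd79a was between 2.69 and 24.01 in all 9 libraries. Cd79b went the other way, at 63.7 to 137, 64.5 to 127 and 130 to 248 in the same order. None of the 12 was at 0 throughout a group. Of 11 late neutrophil markers, 9 were tested in that comparison and 5 were called higher, with sums of 3100 to 3598, 2752 to 8762 and 8380 to 63205 in the same order. Of 10 macrophage markers, 5 were tested and Csf1r alone was called, and Marco was at 0 in the stably expanded group. The 10 sort and design genes, Mpo among them, were all tested without a call, and their sums were 142372 to 150964, 61186 to 313627 and 173019 to 208759. Of 12 T and NK cell markers, at most 2 were tested and 0 called. Among these markers, whose sums reached at most 78.6, Ncr1 and Klrb1c were at 0 in the de novo expanded and Trbc1 and Trbc2 at 0 in the stably expanded group. Of the erythroid markers, 9 were found (sums of 46.0 to 776), 6 or 7 were tested and 0 called. Of the 6 platelet markers (sums of 416 to 900.5, with Ppbp and Gp1bb at 0 throughout), 2 were tested and 0 called. The part of these genes in the Bcl2, Bbc3 and Bak1 results was not tested.

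**Figure D5:**
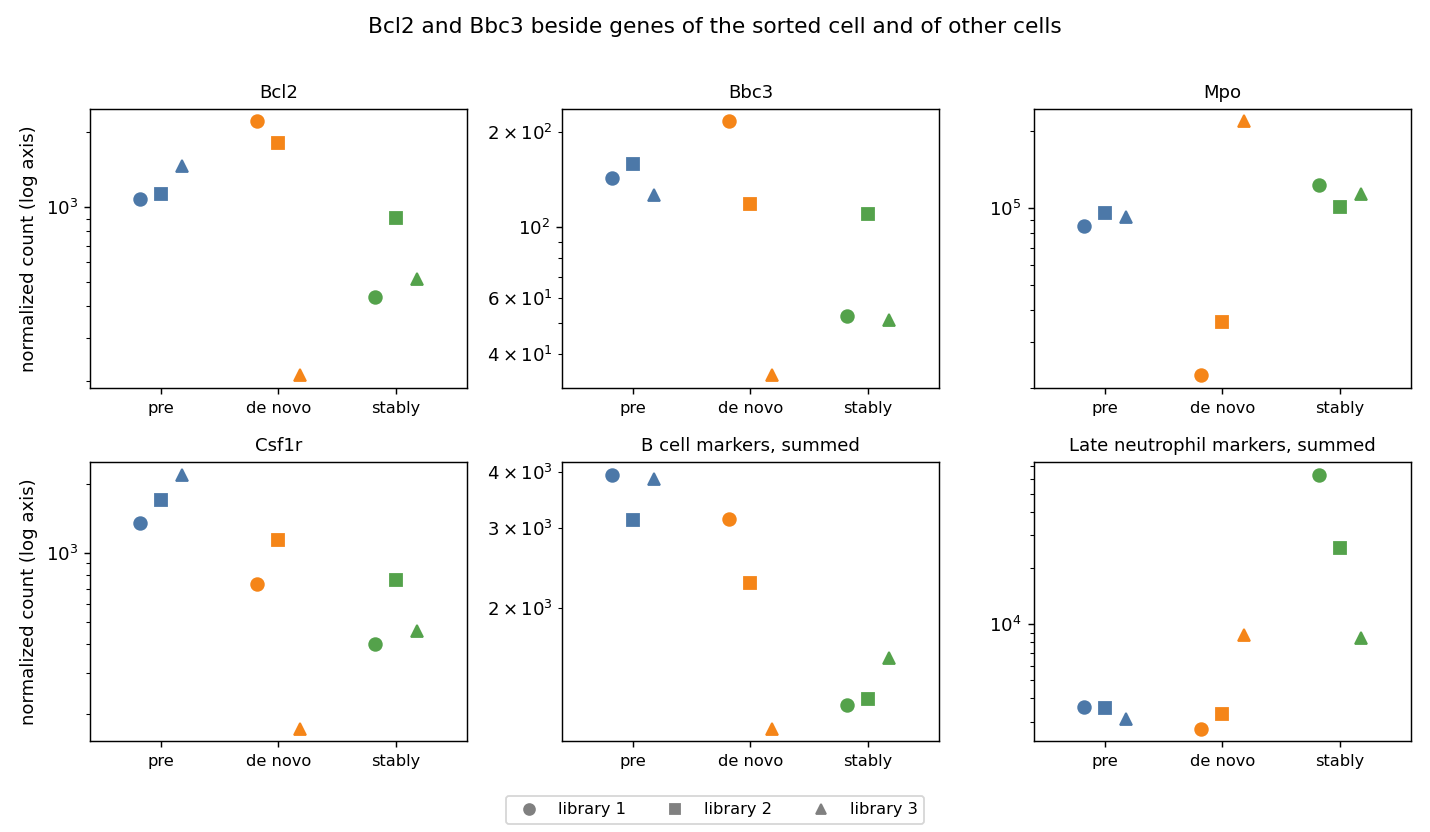
Normalized counts (log y axes) of Bcl2, Bbc3, Mpo and Csf1r, and summed normalized counts of 12 B cell and 11 late neutrophil markers, in each library by group (x axis). De novo expanded library 3 is lowest for Bcl2, Bbc3, Csf1r and the B cell marker sum, most of which is Ighm, and highest for Mpo.

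By the Pearson correlation of log2(normalized count + 1) over the 9 libraries, 10335 genes with a mean of at least 50 were ranked for likeness to single members. Most like Bcl2 were Tlr9, the endosomal receptor for CpG DNA (r = 0.989), Txndc5, a disulfide isomerase of the endoplasmic reticulum (r = 0.986), and Sh3glb1, which encodes endophilin B1 (r = 0.985). Tlr9 counts were 184, 210.3 and 204 in the pre-malignant, 256 and 234 but 84.8 in the de novo expanded and 109, 173 and 121 in the stably expanded libraries, a pattern like that of Bcl2. Without the 2 libraries farthest from the Bcl2 median, r lay between 0.955 and 0.974 for these genes. Most like Mcl1 were H3f3b (r = 0.944), Mks1 (r = 0.943) and Morf4l1 (r = 0.919). Most like Bcl2l11 were Ticam2 (r = 0.937), Rbm15 (r = 0.932) and Tmem135 (r = 0.903). All of these points share library, depth and group, and Bcl2a1b was too low to be ranked.

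Other genes of the pathway showed few differences, and 0 genes of the 6 further lists were called in any of the 3 comparisons. Of the 16 other BCL2 family genes, 8 or 9 were tested, and in stably expanded against pre-malignant clones 1 higher (Bnip3l, which encodes a mitophagy receptor) and 1 lower had an unadjusted p-value under 0.05. Bnip3l had a log2 fold change of 0.31 with an adjusted p-value of 0.120. In de novo expanded clones the smallest unadjusted p-value belonged to Bcl2l14 (log2 fold change -0.79, adjusted p-value 0.417), and between the leukemic groups to Bmf, a BH3-only gene (log2 fold change 0.54, adjusted p-value 0.891).

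Among 17 genes of the apoptosome, the caspases and their inhibitors, stably expanded clones exceeded pre-malignant clones in the value of 11 genes and were below them in 6, with a median log2 fold change of 0.11 (values, not calls). Birc5, encoding survivin, had the smallest unadjusted p-value in de novo expanded clones (log2 fold change 0.43, adjusted p-value 0.414), and Apaf1, the scaffold of the apoptosome, between the leukemic groups (0.26, adjusted p-value 0.891).

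The death receptor and necroptosis arm held 11 tested genes and 0 that passed the adjusted p-value. The genes with the smallest unadjusted p-values were Mlkl, the effector of necroptosis, in stably expanded clones (log2 fold change -0.31, adjusted p-value 0.0913), Tnfrsf1a in de novo expanded clones (-0.30, adjusted p-value 0.412) and Tnfrsf1b, which codes for another TNF receptor, between the leukemic groups (0.44, adjusted p-value 0.891). All 6 regulators of MCL1 protein stability were tested, and none had an unadjusted p-value under 0.05 in any comparison. Their smallest were those of Btrc, part of a ubiquitin ligase, in de novo expanded clones (-0.40, adjusted p-value 0.622) and of the mitochondrial ubiquitin ligase gene March5 in stably expanded against pre-malignant clones (-0.45, adjusted p-value 0.421) and between the leukemic groups (-0.55, adjusted p-value 0.891).

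Of 13 transcription factors known to act at these genes, 12 were tested and 10 had a lower value in stably expanded than in pre-malignant clones, with a median log2 fold change of -0.13, where 6908 of all 13968 genes were lower, and 0 passed the adjusted p-value. Stat5b, which acts downstream of cytokine receptors, had the smallest unadjusted p-value there (log2 fold change -0.29, adjusted p-value 0.131). In de novo expanded clones this was Ddit3, encoding the stress factor CHOP (-0.65, adjusted p-value 0.437), and between the leukemic groups Stat3 (0.41, adjusted p-value 0.891). The values of the 4 channel genes and partners of the outer membrane were higher in 4 of 4 in stably expanded than in pre-malignant clones, where 7060 of all 13968 genes were, and in 3 of 4 against the de novo expanded clones, with 0 past the adjusted p-value. Against the pre-malignant clones, Vdac3 was the nearest in both expanded groups (log2 fold changes 0.50 and 0.42, adjusted p-values 0.0738 in stably and 0.417 in de novo expanded clones), and Mtch2, which encodes a receptor for BID on mitochondria, was the nearest between the leukemic groups (0.19, adjusted p-value 0.893).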

How the data were processed

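RNA-Seq of 9 libraries, 3 per group, was analysed. According to the methods, total RNA was made into libraries with a strand-marking kit (SMARTer Stranded), aligned to GRCm38.p6 and counted on GENCODE genes by the nf-core/rnaseq pipeline and normalized with DESeq2. The submitters' processing notes name bcl2fastq, Trim Galore 0.6.4, STAR 2.6.1d, featureCounts 1.6.4 and DESeq2. The authors deposited 3 tables, 1 per pair of groups, whose values per library are a signal, namely read counts divided by size factors over the 6 libraries of that table. Further columns hold the authors' mean, fold changes and p-values of their own comparison, which were not used, and 0 columns of per-sample values were left out. Division by the smallest step of each library recovered whole reads (tolerance 0.05 reads) for 99.995% or more of the nonzero values, with identical reads for a library in either of its tables. Levels common to 9 libraries were computed from these reads with DESeq2 size factors.

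The test was limma 3.58.1 in R 4.3.3 with an empirical Bayes trend, a pseudocount of 1 and a mean normalized count of at least 10. It was tested on simulated data. Alternatives were pseudocounts of 0.1 and 5, centring on the median, quantile normalization, a mean of 50 or more or no filter, edgeR 4.0.16, DESeq2 1.42.0, a single fit of 9 libraries, no fold limit and leaving out each library. With 3 against 3 libraries, the smallest two-sided p-value of an exact permutation test is 0.1. Tables used pandas 2.3.3 and figures matplotlib 3.10.9 in Python 3.11.15.

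Members and lists were chosen with earlier results of these data known. Named were all 10 members, the A1 copies, genes of the other lists called in any comparison or with the smallest unadjusted p-value of their list in a comparison, and the 3 genes most like Bcl2, Mcl1, Bcl2a1b and Bcl2l11. Some genes under this rule and a detail of the cells are not reported here. Csf1r, Marco and single markers were named after their values were seen. A count of 0 allows up to 3 reads, which covers counting error only.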

Additional observations from a re-analysis of the deposited data

How the results depend on the processing

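Between stably expanded and pre-malignant clones, the 1 member called (Bcl2) became 2 without a filter on low values (Bcl2 and Bbc3) and 2 without a fold limit (Bcl2 and Bak1), 0 with edgeR and 0 in a single fit of all 9 libraries. DESeq2 also gave 1, but this was Bbc3 in place of Bcl2. Leaving out 1 library gave between 0 and 2 members called, with 0 in 5 of 6 fits and Bcl2 and Bbc3 without stably expanded library 2. Between stably and de novo expanded clones, 0 members called became 1 (Bcl2) in a single fit of 8 libraries without de novo expanded library 3, an alternative chosen after seeing the data, and between 0 and 1 when leaving out single libraries. Counts between de novo expanded and pre-malignant clones stayed at 0.

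Signs turned in 29 of 432 alternative values of single members, none of them called in either form, although Bcl2 without de novo expanded library 3 passed the adjusted p-value. Against the pre-malignant clones, de novo expanded Bcl2 was 0.22 with edgeR and 0.22 with DESeq2, and in the single fit of 8 libraries Bcl2 was 0.72, Bcl2l1 -0.054, Bcl2l11 0.073, Bbc3 0.17 and Pmaip1 0.11. Without single libraries the log2 fold changes ran from -0.94 to 0.74 for Bcl2, -0.038 to 0.26 for Bcl2l1, -0.14 to 0.11 for Bcl2l11, -1.12 to 0.19 for Bbc3 and -0.33 to 0.12 for Pmaip1. Stably expanded Bid was -0.026 with quantile normalization, -0.0059 when centred on the median and -0.093 to 0.091 without single libraries. Between the leukemic groups, Mcl1 was -0.038 with quantile normalization, -0.0017 when centred and -0.073 in the fit of 8 libraries, and -0.11 to 0.12 without single libraries. Bax was -0.025 in the fit of 8 libraries and -0.055 to 0.24 without single libraries, and Bbc3 -1.25 to 0.056. The cause of these changes was not tested. With the 2-fold limit kept, counts for the 6 other lists did not change under any alternative. Their counts without a fold limit are not reported here. Over all genes, edgeR on the recovered reads called 0 in de novo expanded against pre-malignant, 377 in stably expanded against pre-malignant and 1 in stably against de novo expanded clones, DESeq2 62, 531 and 32, and the single fit of 9 libraries 5, 9 and 2, where limma on each table called 0, 384 and 1. Without de novo expanded library 3 the comparisons with that group gave 214 and 508.

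No paired analysis was possible because the columns of the tables carry no clone, mouse or replicate number that would tie them to single samples. With 3 libraries per group, some 95% intervals reached past 2-fold in at least 1 direction and so hold changes of that size. These were the intervals of Bcl2 and Bbc3 in all 3 comparisons and of Pmaip1 between the leukemic groups.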
